A study of Mus musculus with 12 samples.

Results

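Super-enhancers (SEs) of mouse embryonic stem cells (ESCs) are divided into subregions by their CpG methylation. DM subregions are unmethylated in ESCs and gain methylation in epiblast stem cells, whereas PU subregions stay unmethylated in both. Described here are the DM subregions that lie in blocks without a PU subregion. The 671 PU and DM subregions with values were sorted along the genome, and neighbours separated by at most 12.5 kb were chained into 225 blocks. Of these blocks, 96 held DM subregions only, and their 211 DM subregions are the members. They make up 211 of the 488 DM subregions, and the other 277 DM subregions share a block with at least 1 of the 183 PU subregions. The type of each subregion came from methylation, so the MED1 and H3K27ac values described here did not enter the rule for members. The SEs themselves were defined in ESCs by dense MED1 binding and H3K27ac, so all 671 subregions come from loci picked for these signals. Blocks were built from distance alone and need not match the SEs drawn in the study.

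An SE is a dense cluster of enhancer units that load large amounts of Mediator, the co-activator complex that links transcription factors to RNA polymerase II, and MED1 is one of its subunits. H3K27ac is acetylation of histone H3 at lysine 27, a mark of active enhancers and promoters. ESRRB is an orphan nuclear receptor that binds as a monomer to an extended half-site with the core AAGGTCA. It acts together with OCT4, SOX2, KLF4 and TFCP2L1 in naive ESCs, and its level falls as cells leave the naive state.

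The 2 genotypes were Esrrb f/f ESCs, a control line that the labels call wild-type, and Esrrb-/- knock-out ESCs, both grown on gelatin in serum/LIF medium. MED1 and H3K27ac were immunoprecipitated from each genotype, with input DNA beside them, in 2 libraries per antibody and genotype (12 libraries in all). The authors deposited 1 RPKM (reads per kilobase, scaled to the size of the library) per subregion for each of the 4 antibody and genotype combinations, so the libraries are not separated and the spread between replicates is not known. No test between genotypes was therefore made and no p-value is given. Each genotype is a single line as described, and differences between lines that do not come from Esrrb cannot be told apart from those that do. Values are averages over a population, so fewer cells carrying a signal and less signal per cell cannot be told apart. No RNA was measured, and neither the loss of ESRRB nor the naive identity of the cells was checked in these values.

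The sequences below show the ESRRB core in 10 members, picked as examples with their values known, to set its surroundings beside lower, level and higher MED1. In each 41-base window, read 5′ to 3′ on the strand that carries the match, the AAGGTCA core is in capitals. The first 5 windows come from members with lower MED1 in Esrrb-/- ESCs, and in 3 of them (Sik1, Tmem51 and Klf4) the core is preceded by TC, which gives the full half-site TCAAGGTCA. Coordinates are those of mm9, counted from 1, and each member is named after the protein-coding gene whose start is nearest to its centre.
Tbx3, chr5:120137093-120137133, plus strand: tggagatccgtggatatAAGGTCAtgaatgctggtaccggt
1700012A03Rik, chr6:31848728-31848768, plus strand: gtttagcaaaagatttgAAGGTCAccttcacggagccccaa
Sik1, chr17:31943570-31943610, minus strand: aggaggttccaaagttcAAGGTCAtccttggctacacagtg
Tmem51, chr4:141625066-141625106, minus strand: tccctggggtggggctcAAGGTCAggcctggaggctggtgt
Klf4, chr4:55489282-55489322, plus strand: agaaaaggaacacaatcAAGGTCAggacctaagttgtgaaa

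A further set of 5 windows come from members whose MED1 was higher or about level in Esrrb-/- ESCs, since the core was also present there. The Dmrt1 window and the window of the Esrrb member that starts at 87842636 hold the full TCAAGGTCA, and the Fbxo36 window carries a second core directly before the one in capitals.
Esrrb, chr12:87839687-87839727, plus strand: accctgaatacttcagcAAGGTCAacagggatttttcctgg
Esrrb, chr12:87842650-87842690, minus strand: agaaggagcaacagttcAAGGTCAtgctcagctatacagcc
Fbxo36, chr1:84878892-84878932, minus strand: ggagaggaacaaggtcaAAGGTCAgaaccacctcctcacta
Slc16a14, chr1:84886234-84886274, minus strand: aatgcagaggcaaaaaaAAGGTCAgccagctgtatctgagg
Dmrt1, chr19:25561158-25561198, minus strand: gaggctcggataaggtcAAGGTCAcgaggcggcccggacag

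Longer stretches are given for 3 members that stand at the ends of the range. The first is 201 bases of the Tgif1 member with the lowest MED1 log2 fold change among the named members with a core, which here lies on the minus strand and appears in capitals as its complement TGACCTT. The second is the central 201 bases of the Lingo1 member, which had the lowest MED1 log2 fold change of all members and no core. The third is the whole of the short Klf2 member, 134 bases with both ends counted, which had the highest H3K27ac RPKM of all members in Esrrb-/- ESCs and no core.
Tgif1, chr17:71179399-71179599, plus strand: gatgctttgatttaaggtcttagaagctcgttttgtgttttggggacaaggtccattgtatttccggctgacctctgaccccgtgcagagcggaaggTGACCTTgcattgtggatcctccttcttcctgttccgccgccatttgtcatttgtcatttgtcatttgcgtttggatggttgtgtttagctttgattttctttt
Lingo1, chr9:56395339-56395539, plus strand: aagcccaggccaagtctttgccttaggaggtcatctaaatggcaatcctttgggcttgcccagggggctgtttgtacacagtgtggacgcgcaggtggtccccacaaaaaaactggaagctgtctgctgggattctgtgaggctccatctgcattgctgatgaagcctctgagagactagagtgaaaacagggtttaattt
Klf2, chr8:74840467-74840600, plus strand: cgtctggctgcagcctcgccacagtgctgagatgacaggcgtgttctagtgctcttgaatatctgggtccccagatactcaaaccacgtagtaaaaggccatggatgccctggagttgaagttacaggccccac

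The members carried less MED1 in Esrrb-/- than in Esrrb f/f ESCs, while their median H3K27ac was nearly level. The median MED1 of the 211 members was 746 RPKM in Esrrb f/f against 470.1 RPKM in Esrrb-/- ESCs. In the 277 DM subregions with a PU in the block the corresponding MED1 medians were 441 and 450.2 RPKM, and in the 183 PU subregions 679 and 620.0 RPKM. The members thus started from the highest MED1 median of the 3 groups in Esrrb f/f ESCs and came close to the other DM subregions in Esrrb-/- ESCs. Median H3K27ac of the members was 529 RPKM in Esrrb f/f against 504 RPKM in Esrrb-/- ESCs. The H3K27ac medians in Esrrb f/f ESCs were similar in the other groups, 526 RPKM in DM subregions with a PU in the block and 506 RPKM in PU subregions. In Esrrb-/- ESCs they were 554 and 714 RPKM, respectively. Single members spanned 78.8 to 4623 RPKM of MED1 in Esrrb f/f ESCs and 118 to 4944 RPKM in Esrrb-/- ESCs. H3K27ac spanned 85.5 to 1292 RPKM in Esrrb f/f ESCs and 24.3 to 4097 RPKM in Esrrb-/- ESCs, so its range over members was wider without ESRRB at both ends.

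**Figure D1:**
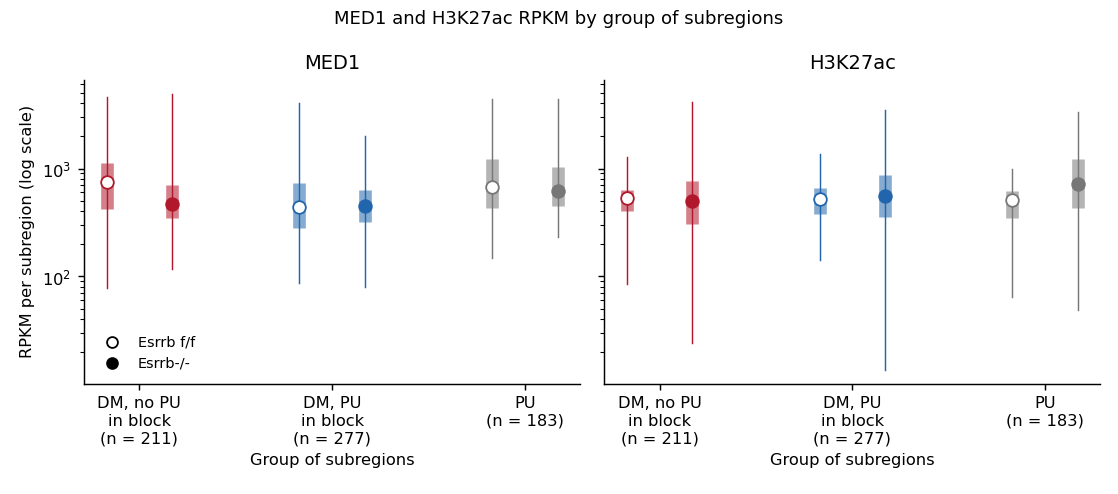
MED1 (left) and H3K27ac (right) in RPKM per subregion on a log axis, for the 211 members (DM, no PU in block), 277 DM subregions with a PU in the block and 183 PU subregions. Circles are medians (open, Esrrb f/f; filled, Esrrb-/-), thick bars the middle 50% of subregions and thin lines the full range. The MED1 median of the members is 746 RPKM in Esrrb f/f against 470.1 RPKM in Esrrb-/- ESCs.

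The log2 fold change of a subregion is log2 of Esrrb-/- RPKM plus 1 over Esrrb f/f RPKM plus 1, so negative values are lower in Esrrb-/- ESCs. For MED1 the median was −0.34 for the members (middle 50% from −0.997 to 0.09), −0.04 for DM subregions with a PU in the block and −0.03 for PU subregions, against −0.14 over all 671. For H3K27ac the medians were 0.06 for the members (middle 50% from −0.45 to 0.40), 0.17 for DM subregions with a PU in the block, 0.66 for PU subregions and 0.24 over all 671. Relative to all subregions, the members' median was therefore −0.20 for MED1 and −0.18 for H3K27ac. The difference between the members and the other DM subregions was −0.29 for MED1 and −0.11 for H3K27ac. Whether these differences exceed the variation between libraries was not tested.

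These directions depend on how the genotypes are scaled to each other. Setting the reads over all 671 subregions to the same total in both genotypes adds 0.28 to every MED1 and subtracts 0.48 from every H3K27ac log2 fold change, and it brings the members' medians to −0.06 and −0.42. Under this scaling or centring on the median of all subregions, 33 members changed sign for MED1 and 72 for H3K27ac. The share of the reads of all 671 subregions that lay in the members does not change with a scaling factor, but it is relative to the other groups. For MED1 this share was 38.1% in Esrrb f/f (95% exact Clopper-Pearson interval 37.9 to 38.2%) and 33.7% in Esrrb-/- ESCs (33.4 to 34.0%). For H3K27ac it was 36.1% (36.0 to 36.2%) and 28.9% (28.8 to 29.0%), respectively. The members covered 36.5% of the length of all subregions. Over the same libraries the share in PU subregions went from 28.7% to 33.5% for MED1 and from 26.2% to 37.0% for H3K27ac. In the DM subregions with a PU in the block it went from 33.2% to 32.8% for MED1 and from 37.7% to 34.1% for H3K27ac. A lower H3K27ac share in Esrrb-/- ESCs was thus common to both groups of DM subregions. Intervals cover counting error only, and reads were recovered from the RPKM as the smallest whole numbers that their ratios allow.

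MED1 was lower in Esrrb-/- ESCs in 144 of 211 members (68.2%), against 58% of all 671 subregions. At a fold of 1.5 or more, MED1 was lower in 90 members (42.7%; all subregions 26.8%) and higher in 19 (9%; all subregions 14.8%). H3K27ac was lower by this fold in 42 members (19.9%; all subregions 15.1%) and higher in 34 (16.1%; all subregions 30.6%). Among the DM subregions with a PU in the block, 21.7% had MED1 lower and 19.9% had it higher by 1.5-fold or more. With log2 fold changes centred on the median of all subregions, MED1 was lower by this fold in 78 members (37.0%, against 22.2% of all subregions). It was higher in 26 (12.3%, against 19.5%). Centred H3K27ac was lower in 63 (29.9%, against 21.9%) and higher in 18 (8.53%, against 19.5%). Scaled to equal totals, MED1 was lower in 62 (29.4%, against 17.6% of all subregions) and higher in 33 (15.6%, against 24.7%). H3K27ac was then lower in 88 (41.7%, against 31.1%) and higher in 8 (3.79%, against 12.2%). For single members, 95% counting intervals of the MED1 log2 fold change lay below 0 in 115 (54.5%; all subregions 39.5%) and above 0 in 31 (14.7%; all subregions 20.6%). For H3K27ac they lay below 0 in 79 (37.4%; all subregions 26.4%) and above 0 in 92 (43.6%; all subregions 53.4%).

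MED1 and H3K27ac were both lower in 73 members (34.6%; all subregions 25.3%) and both higher in 45 (21.3%; all subregions 32.0%). MED1 was lower and H3K27ac higher in 71 (33.6%; all subregions 32.6%), and the reverse held in 22 (10.4%; all subregions 9.99%), so the shares with opposite directions were close to those over all subregions. Both signals were lower by 1.5-fold or more in 26 members (12.3%; all subregions 7.15%). MED1 was lower and H3K27ac higher by this fold in 6 members (2.84%; all subregions 4.02%). Across the 211 members the 2 log2 fold changes had Spearman's rho = 0.35 and Pearson's r = 0.36, as a description only, since members of a block share a locus and all members share the libraries. The median difference of MED1 minus H3K27ac log2 fold change was −0.36 in the members, −0.22 in the other DM subregions and −0.72 in PU subregions, and in the members it turned positive under both other scalings (0.02 centred, 0.40 at equal totals). MED1 log2 fold changes also ran with H3K27ac in Esrrb f/f ESCs (rho = −0.29), a value from separate libraries. With the distance to the nearest transcription start rho was −0.01, and with the length of the member −0.06.

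**Figure D2:**
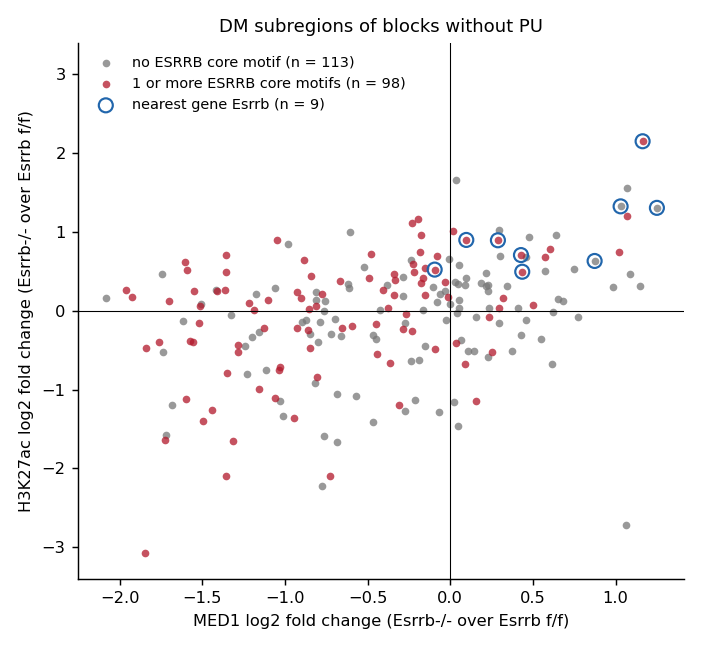
H3K27ac against MED1 log2 fold change (Esrrb-/- over Esrrb f/f) for the 211 members, 1 point each. Red points hold at least 1 ESRRB core (n = 98), grey points none (n = 113), and blue rings mark the 9 members nearest to Esrrb, which lie between 0.49 and 2.15 on the H3K27ac axis. The 73 members at the lower left are lower for both signals and the 71 at the upper left are lower for MED1 only.

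By sequence and position, the members were long and distal, and less GC-rich than PU subregions. Their median length was 1129 bp (61 to 6869 bp), against 796 bp in the other DM subregions and 885 bp in PU subregions. Median GC content was 48.9% in the members, 49.0% in the other DM subregions and 52.8% in PU subregions, and the CpG density was 1.31, 1.60 and 2.33 per 100 bp. The nearest protein-coding transcription start lay a median of 20809 bp from the members, 11583 bp from the other DM subregions and 6536 bp from PU subregions. The rule keeps members more than 12.5 kb from any PU, and PU subregions lie nearest to starts, so this distance is not independent of the rule. The part of the rule in it was not tested. In the GENCODE annotation of the same build, 107 members were intergenic, 72 intronic and 21 overlapped an exon without a start, whereas 11 (5.21%) covered a transcription start, against 22.4% of PU subregions. Median MED1 log2 fold changes were −0.43 in the intergenic members, −0.17 in the intronic ones, −0.23 in those over exons and −0.38 in those over a start. Across members, H3K27ac log2 fold changes were higher at higher GC content (rho = 0.32), whereas those of MED1 had rho = −0.12 with it.

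The ESRRB core AAGGTCA, searched on both strands, was found in 98 of 211 members (46.4%), with 152 matches or 0.50 per kb. It was found in 31.0% of the other DM subregions (0.37 per kb), in 28.4% of PU subregions (0.30 per kb) and in 35.2% of all 671. Longer subregions hold more matches, and the core was present in 13.9%, 37.1% and 54.5% of the short, middle and long subregions, 3 classes of equal size. In the members these shares were 16.3%, 53.4% and 57.3%, and in the other DM subregions 7.08%, 34.5% and 61.2%. The full TCAAGGTCA, each match of which contains a core, occurred in 34 members (16.1%), in 10.1% of the other DM subregions and in 3.83% of PU subregions. The study itself reports on ESRRB at DM subregions, so the choice of this motif is not independent of earlier work on these loci.

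Members with the core had lower MED1 log2 fold changes than members without it. With the core, median MED1 was 976 RPKM in Esrrb f/f against 544 RPKM in Esrrb-/- ESCs, with −0.66 as the median log2 fold change (middle 50% from −1.29 to −0.16). Without the core, the medians were 532 and 396 RPKM and −0.10 (middle 50% from −0.76 to 0.23). Under centring and equal totals the median with the core stayed below 0 (−0.52 and −0.38), and that without it turned to 0.04 and 0.17. MED1 was lower by 1.5-fold or more in 51 of 98 members with the core (52.0%) and in 39 of 113 without it (34.5%; all subregions 26.8%). These counts were 47 and 31 after centring and 41 and 21 at equal totals. The 34 members with the full TCAAGGTCA had a median of −0.91, against −0.74 in all subregions that hold it. MED1 was lower in 31 of the 34 (all subregions 58%) and higher by 1.5-fold in 0 (all subregions 14.8%). The 64 members with the shorter core only had a median of −0.43. More copies did not go with a lower value: the median was −0.73 with 1 core (61 members), −0.57 with 2 (26 members) and −0.67 with 3 or more (11 members). H3K27ac showed no such step, with medians of 0.11 with and 0.01 without the core. The core-bearing members were longer (median 1456 against 840.0 bp), and the difference was therefore taken within the 3 classes of length as well. It was −0.24 among short members, where only 8 held the core, −0.41 among middle and −0.43 among long ones. In the other DM subregions these differences were −0.55, −0.56 and −0.39, and in PU subregions −0.08, 0.03 and −0.18. MED1 in Esrrb f/f ESCs, also higher with the core, was not matched. Across members it had rho = −0.53 with the MED1 log2 fold change, of which it is the denominator. Its part in the difference by core was not tested. A match of letters is a description and does not show that ESRRB was bound there.

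**Figure D3:**
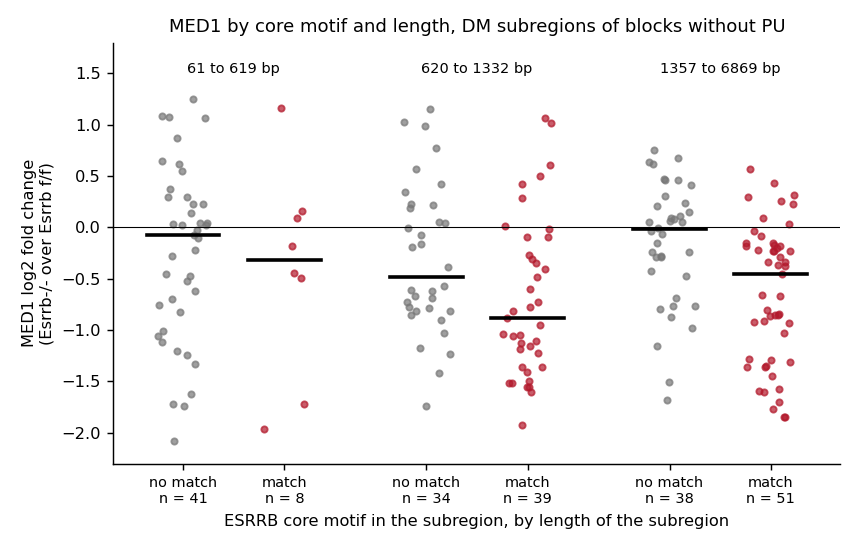
MED1 log2 fold change (Esrrb-/- over Esrrb f/f) of members without (grey) and with (red) the ESRRB core, in 3 classes of length set on all 671 subregions. Points are single members, spread sideways for legibility, and black bars are medians, which lie lower with the core in each class.

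Of the other motifs, CACGTG, the E-box bound by bHLH factors such as MYC, was found in 42 members (19.9%; 18.2% of all subregions). Their median MED1 log2 fold change was −0.80 against −0.28 without it, while in the other DM subregions these medians were −0.10 and −0.04. TTCCNGGAA, the STAT element, was in 13 members (6.16%; 5.07% of all subregions), with medians of −0.78 and −0.32 (−0.01 and −0.05 in the other DM subregions). The KLF element GGGTGTGG was in 39 members (18.5%; 17.4% of all subregions), with medians of −0.45 and −0.34. The octamer ATGCAAAT, bound by OCT4, was in 24 members (11.4%; 10.3% of all subregions), with medians of −0.19 and −0.36. The SOX element AACAATGG was in 16 members (7.58%; 6.26% of all subregions), with medians of −0.22 and −0.34. Unlike the ESRRB core, these 5 motifs were held by similar shares of the members and of all subregions, all were searched on both strands, and members holding any of them were longer than members without it.

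Of the 8 gene lists, that of naive pluripotency factors held most members, 44 of 211, which were nearest to 12 of its 18 genes, while 143 members were nearest to a gene of no list. MED1 was lower by 1.5-fold or more in 17 of the 44 (38.6%; all members 42.7%, all subregions 26.8%), higher in 6 and between these in 21, with −0.23 as the median log2 fold change. Leaving out the 9 members at Esrrb, the mutated gene, the median over the other 35 was −0.57. H3K27ac was lower by this fold in 8 of the 44, higher in 12 and between in 24. Over all subregions H3K27ac was lower by this fold in 15.1% and higher in 30.6%. The MED1 median over all 44 was −0.09 after centring, with 12 members lower by 1.5-fold (all subregions 22.2%). At equal totals it turned to 0.05, with 9 members lower (all subregions 17.6%). By gene, the median MED1 log2 fold change was negative at Tbx3, Tet2, Klf4, Tdh, Tcfcp2l1, Zfp42, Dppa3 and Dppa5a and positive at Klf5, Klf2, Prdm14 and Esrrb.

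Tbx3, a T-box transcription factor that sustains naive self-renewal, had the block with the most members, 8 over 33150 bp from its start into the downstream flank. The member over its transcription start, chr5:120130287-120133422, had 1083 RPKM of MED1 in Esrrb f/f against 356 RPKM in Esrrb-/- ESCs (−1.60 as log2 fold change, with a counting interval of −1.80 to −1.41). H3K27ac there was 629 and 969 RPKM (0.62). It was the only one of the 8 whose H3K27ac counting interval lay above 0, and MED1 and H3K27ac thus differed in opposite directions at the promoter. Another 4 Tbx3 members had MED1 log2 fold changes between −1.84 and −1.52. The one with the lowest value, which carries the Tbx3 core printed above, had 818 RPKM of MED1 in Esrrb f/f against 227 RPKM in Esrrb-/- ESCs. The member at 120141164 stood apart with 264 and 269 RPKM of MED1, while its H3K27ac was 173 and 76.8 RPKM. The shortest Tbx3 member, 113 bp, had a counting interval for MED1 from −2.52 to 0.83 and gives no direction.

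At Tet2, which encodes a dioxygenase that oxidises 5-methylcytosine, 3 intronic members had lower MED1 and lower H3K27ac. MED1 was 859, 505 and 1010 RPKM in order of coordinate, which runs against the gene, in Esrrb f/f ESCs and 426, 297 and 581 RPKM in Esrrb-/- ESCs, with log2 fold changes of −1.01, −0.76 and −0.80. Their H3K27ac log2 fold changes were −1.33, −1.59 and −0.39, and none of the 3 holds the core. At Klf4, one of the reprogramming factors, the 2 members lay 65588 and 53644 bp downstream of the start. The longest of all members, chr4:55484129-55490998, had 1313 RPKM of MED1 in Esrrb f/f against 513 RPKM in Esrrb-/- ESCs (−1.35; counting interval −1.47 to −1.24) and 549 and 317 RPKM of H3K27ac (−0.79). It holds 2 cores, of which the TCAAGGTCA is printed above. The other Klf4 member, over an exon of Gm12510, a non-coding gene, had MED1 and H3K27ac log2 fold changes of −0.68 and −1.06.

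Tdh encodes threonine dehydrogenase, an enzyme on which mouse ESCs depend, and both of its members, 1 over the start and 1 in the gene body, had lower MED1. The values were 976 RPKM in Esrrb f/f against 615 RPKM in Esrrb-/- ESCs at the start and 1324 and 841 RPKM in the body (log2 fold changes −0.67 and −0.65). H3K27ac was higher at the start (0.37, although negative at equal totals) and lower in the body (−0.22). The member at the start holds 5 cores, a count reached otherwise only by the Tmem51 member described below. At Tcfcp2l1, a transcription factor downstream of LIF, the longer of 2 intronic members had 1025 RPKM of MED1 in Esrrb f/f against 360.0 RPKM in Esrrb-/- ESCs (−1.51), with nearly level H3K27ac (0.08). The shorter one, which lies less than 1 kb away, had −0.82 for MED1 and −0.91 for H3K27ac. The single members at Zfp42 (Rex1, a marker of naive cells) and Dppa3 (Stella) had MED1 log2 fold changes of −0.62 and −0.92, with H3K27ac at 0.34 and 0.24, both of which are negative at equal totals. The MED1 interval at Zfp42 (−0.80 to −0.44) excluded 0.

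Klf5, Klf2 and Prdm14 showed another pattern. Of the 3 Klf5 members, which lie 40632 to 54325 bp downstream of its start, the first had lower MED1 (1096 RPKM in Esrrb f/f against 867 RPKM in Esrrb-/- ESCs; −0.34). The other two had higher MED1 (531 and 731 RPKM, 0.46; 333 and 535 RPKM, 0.68). At Klf2, the longer member had 580.5 RPKM of MED1 in Esrrb f/f against 717 RPKM in Esrrb-/- ESCs (0.30), and its H3K27ac was also higher (0.69). The short Klf2 member printed above had level MED1 (1752 and 1794 RPKM; 0.03) beside 1292 and 4097 RPKM of H3K27ac (1.66; counting interval from 1.45). Prdm14, whose product represses FGF signalling and DNA methyltransferase genes, had 7 members in a block of 35020 bp downstream of the gene. Their MED1 log2 fold changes ran from −0.18 to 1.08 with a median of 0.24, and those of H3K27ac from −0.51 to 0.74 with a median of 0.04. The highest MED1 value among them belonged to a 335-bp member with 183 RPKM in Esrrb f/f against 389 RPKM in Esrrb-/- ESCs and an interval from 0.28 to 1.90.

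At Esrrb itself, 8 of 9 members in 2 blocks had higher MED1 in Esrrb-/- ESCs, and H3K27ac was higher in all 9. In the first block, 9301 bp from the start into the gene, all 5 members had higher MED1 in Esrrb-/- ESCs, with log2 fold changes from 0.44 to 1.25, and higher H3K27ac, from 0.49 to 2.15. The highest H3K27ac log2 fold change of all members was here, 2.15 at chr12:87818755-87819126. H3K27ac there was 735 RPKM in Esrrb f/f against 3265 RPKM in Esrrb-/- ESCs, beside 1440.0 and 3227 RPKM of MED1. The 4 members of the second block had MED1 log2 fold changes of 0.43, 0.10, 0.29 and −0.09 and H3K27ac log2 fold changes from 0.52 to 0.90, and the last MED1 value turns positive under both other scalings. The member at 87842636 in this block carried the highest MED1 of all members in both genotypes (4623 and 4944 RPKM). Whether the altered allele takes part in these values was not tested. Without both blocks the members' median MED1 log2 fold change was −0.40.

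**Figure D4:**
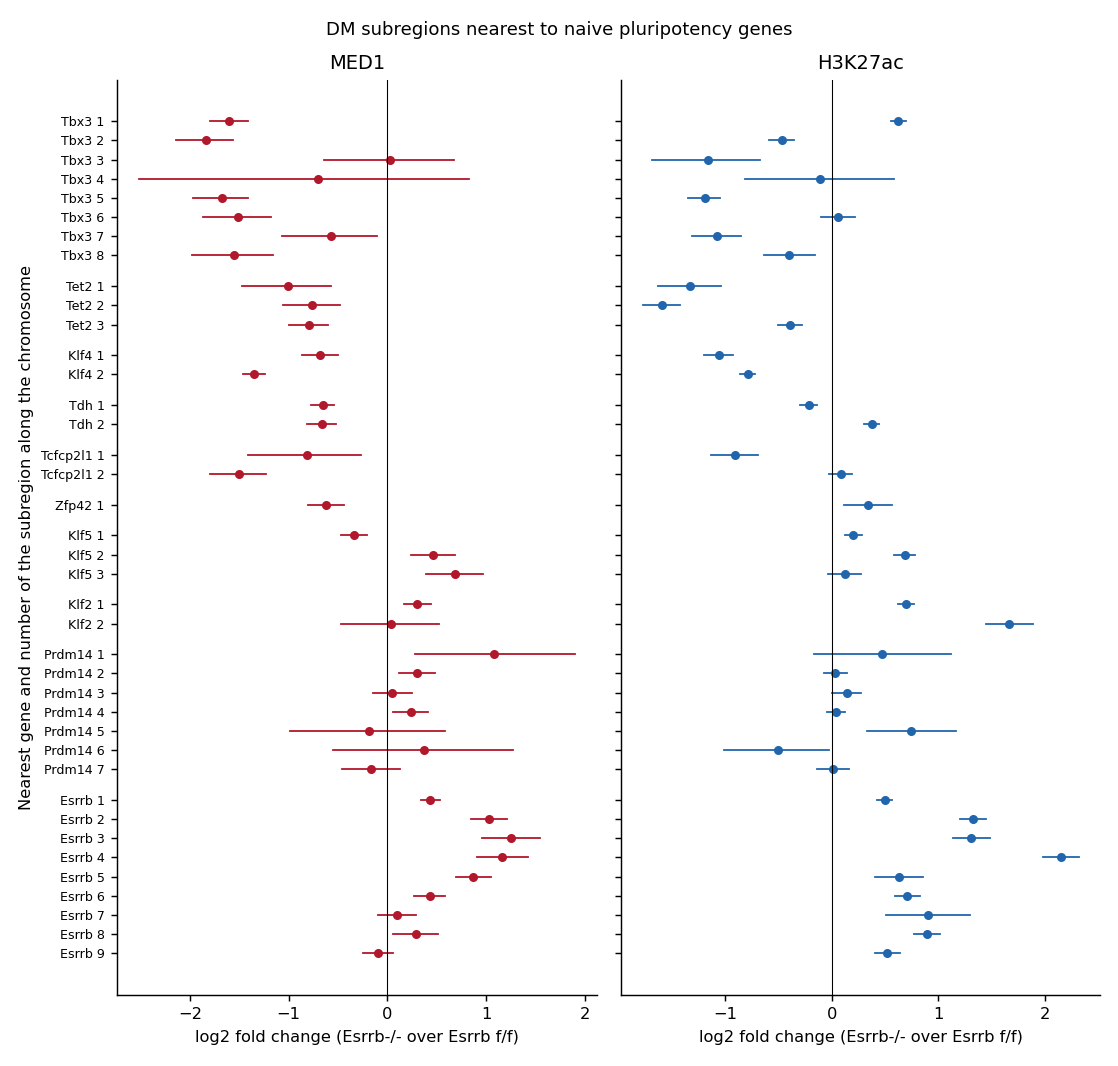
MED1 (left) and H3K27ac (right) log2 fold change (Esrrb-/- over Esrrb f/f) of the 39 members nearest to 10 naive pluripotency genes, numbered along the chromosome. Points are values and lines are 95% counting intervals. Members of Tbx3, Tet2, Klf4, Tdh, Tcfcp2l1 and Zfp42 lie mostly left of 0 for MED1, and those of Esrrb lie right of 0 for H3K27ac.

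Beyond the naive factors, genes of the TGF beta, NODAL and BMP list were nearest to 7 members, 6 of which (85.7%; all subregions 26.8%) had MED1 lower by 1.5-fold or more under each of the 3 scalings (median −1.36). Of these 6, 3 were members of Tgif1, so they are not separate loci. The genes were Tgif1, Ski and Smad7, which restrain SMAD signalling, and Inhbb, a subunit of activins. Tgif1 had 4 members on both sides of the gene, with MED1 of 2339, 2053, 1538 and 817 RPKM in Esrrb f/f ESCs and 912, 526, 820.2 and 798 RPKM in Esrrb-/- ESCs. The 4 log2 fold changes were −1.36, −1.96, −0.91 and −0.03, so that only the last was level. H3K27ac was higher in all 4 (0.17 to 0.71), although 3 of the 4 are negative at equal totals. The Smad7 member had 1553 and 512 RPKM of MED1 (−1.60) and 423 and 194 RPKM of H3K27ac (−1.12), and the Ski and Inhbb members had MED1 log2 fold changes of −1.74 and −1.06. Chromatin and DNA methylation regulators were nearest to 8 members at 4 genes, of which Tet2 is also on the naive list. MED1 was lower by 1.5-fold or more in 7 of the 8 (87.5%, against 26.8% of all subregions). The count was 6 after centring (all subregions 22.2%) and 4 at equal totals (all subregions 17.6%). The 7 were 3 at Tet2, 2 at Med13l, which encodes a Mediator kinase-module subunit, 1 at Myst4, a histone acetyltransferase gene, and 1 at Brd1. Those of 1 gene are not separate loci, and the MED1 counting interval of 1 Med13l member (−1.37 to 0.09) included 0. At Brd1, MED1 was 2710.4 RPKM in Esrrb f/f against 1018 RPKM in Esrrb-/- ESCs (−1.41).

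The other lists touched few members. LIF, JAK and STAT3 signalling had 4 members at Gadd45a and Sgk1, of which 2 had lower and 1 higher MED1 by 1.5-fold (all subregions 26.8% and 14.8%). Of the 4, 3 were at Sgk1 and are not separate loci. The Gadd45a member had 746 RPKM of MED1 in Esrrb f/f against 274 RPKM in Esrrb-/- ESCs (−1.44), with H3K27ac at −1.25. The KLF and MYC family list had 5 members, 1 at Klf3 and 4 at Klf9, with MED1 log2 fold changes from −0.61 to 0.09. WNT signalling had 2 members, at Csnk1a1 and Tcf15 (MED1 log2 fold changes −1.74 and −0.48), the general pluripotency list had 1, at Sox2 (−0.08), and FGF and ERK signalling had 0. Over the 68 members nearest to a gene of any list the MED1 median was −0.46, and the other 143 members had −0.28.

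Among members of at least 500 bp with MED1 at or above the members' median, the 8 lowest MED1 log2 fold changes, with at most 1 per block, ran from −2.08 to −1.60. The lowest belonged to the Lingo1 member printed above, 87738 bp from the start of this transmembrane protein gene, with 1682 RPKM in Esrrb f/f against 396 RPKM in Esrrb-/- ESCs (counting interval −2.56 to −1.65). Its H3K27ac was 592 and 661 RPKM. Next came the Tgif1 member, with 2053 and 526 RPKM of MED1 (interval −2.33 to −1.62) and 651 and 783 RPKM of H3K27ac. The Sik1 member, near a salt-inducible kinase gene, had 1376 and 404 RPKM of MED1 (−1.76), and Csnk1a1, a kinase of the beta-catenin destruction complex, had 2713 and 810 RPKM (−1.74). Manba, which encodes lysosomal beta-mannosidase, had 2301 and 707 RPKM (−1.70) in a member with 3 cores. The remaining 3 were at Wbscr27 (−1.62), the Tbx3 start (−1.60) and Smad7 (−1.60). H3K27ac was higher or within 1.5-fold in 7 of these 8, and Smad7 was the exception.

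The 8 highest by the same rule had smaller MED1 differences, from 0.23 to 1.25. An intronic Esrrb member headed them (767 RPKM in Esrrb f/f against 1826 RPKM in Esrrb-/- ESCs; H3K27ac log2 fold change 1.30). Members at Sgk1, a kinase gene induced by serum and glucocorticoids, followed in 2 separate blocks (672 and 1131 RPKM, 0.75; 547 and 727 RPKM, 0.41). Another Sgk1 member, in the same block as the latter, went the other way (1462 and 713 RPKM; −1.04). Dmrt1, a gonadal transcription factor gene, had 739 and 1101 RPKM (0.57) although its member holds 3 cores, as the window printed above shows in part. The others were at Klf5 (0.46), the second Esrrb block (0.43), Klf2 (0.30) and Etl4 (0.23).

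By the same rule for H3K27ac, the 5 lowest were at Gpa33, an intestinal surface antigen gene (743 RPKM in Esrrb f/f against 372 RPKM in Esrrb-/- ESCs; −0.99), Tcfcp2l1 (−0.91), Fbxo36 (−0.48), Sik1 (−0.40) and Zfp704 (−0.33). MED1 was lower in all 5, between −1.76 and −0.66. The 5 highest were at Esrrb (1.32), Serp2 (508 and 1142 RPKM; 1.17), Cenpv (783 and 1694 RPKM; 1.11), Fnbp1 (703 and 1416 RPKM; 1.01) and Klf3 (634 and 1273 RPKM; 1.00). Apart from Esrrb, their MED1 log2 fold changes were near 0 or negative (−0.61 to 0.02), and those at Cenpv and Serp2 are positive at equal totals. This rule leaves out members with little signal left in Esrrb-/- ESCs. The lowest H3K27ac value of all members was such a one, chr6:31847019-31849813, 150433 bp from 1700012A03Rik in an intron of Gm13849, with 299 RPKM in Esrrb f/f against 34.8 RPKM in Esrrb-/- ESCs (−3.07). MED1 there was 427 and 118 RPKM (−1.85), and it holds 3 cores, 1 of which is printed above.

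Members with most cores did not share a direction. The Tmem51 member (5 cores, intronic) had 1647 RPKM of MED1 in Esrrb f/f against 545 RPKM in Esrrb-/- ESCs (−1.59), with H3K27ac at 0.52, whereas the Tdh start (5 cores) had −0.67. With 4 cores each, the Etl4 member was nearly level despite high MED1 (2507 and 2253 RPKM; −0.15) and the C80913 member was higher (480.5 and 598 RPKM; 0.32). Among the 7 members with 3 cores, MED1 log2 fold changes ran from −1.85 at 1700012A03Rik to 0.57 at Dmrt1. Of the 3 longest members, the Klf4 member had MED1 at −1.35, while those at Prdm14 (4948 bp; 0.30) and Aym1 (4517 bp; −0.08) did not have it lower by 1.5-fold.

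Members of 1 block tended to go the same way for MED1. In 115 pairs of neighbours within a block the median absolute difference of MED1 log2 fold changes was 0.38, and their values had Spearman's rho = 0.63. In 79 pairs of neighbouring members from successive blocks of a chromosome the difference was 0.61 and rho was 0.12. For H3K27ac these were 0.48 and rho = 0.52 within blocks, and 0.54 and rho = 0.02 between blocks. Neighbours in a block are close together (median gap 2307 bp) and share their local sequence, so they do not count as separate observations. MED1 was lower in every member of 63 of the 96 blocks and higher in every member of 12 (56 and 20 after centring, 47 and 31 at equal totals). These counts include 44 blocks with 1 member, which cannot be mixed. Blocks with a PU were not counted in this way. Of the 52 blocks with 2 or more members, 24 were lower throughout, 7 higher throughout and 21 mixed. For H3K27ac, 10 of the 52 were lower throughout, 14 higher throughout and 28 mixed, and at equal totals 32 were lower and 5 higher throughout.

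Small blocks had the lower MED1 values. The 94 members of blocks with 1 or 2 members had −0.64 as median MED1 log2 fold change. MED1 was lower by 1.5-fold or more in 51 of them (54.3%; all subregions 26.8%). In the 117 members of larger blocks the median was −0.16 and the count 39 (33.3%), or 39 of 108 (36.1%) without the members at Esrrb. At equal totals the medians were −0.36 and 0.11, and the counts 38 and 24 (all subregions 17.6%). After centring the counts were 43 and 35 (all subregions 22.2%). Median MED1 of the members in Esrrb f/f ESCs also differed, 904 RPKM in the small and 590.1 RPKM in the larger blocks. So did the share with a core, 53.2% and 41.0%. The part of these 2 measures in the difference was not tested. H3K27ac medians were 0.15 and 0.01. This split was chosen after the values were seen, and DM subregions with a PU in the block were not split in this way.

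**Figure D5:**
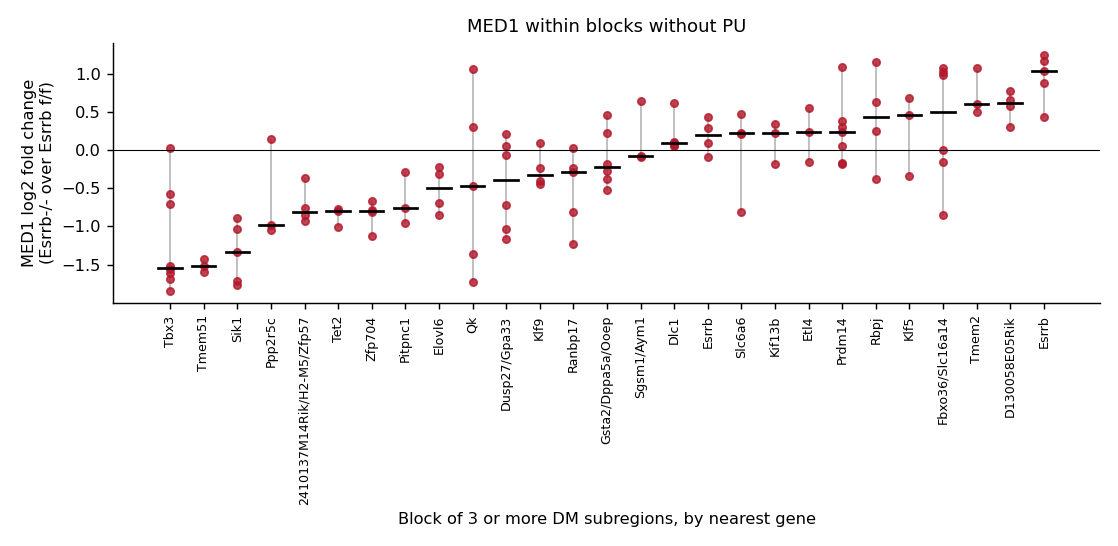
MED1 log2 fold change (Esrrb-/- over Esrrb f/f) of the 117 members in the 27 blocks with 3 or more members, ordered by block median and named by the nearest genes. Points are members, grey lines the range in a block and black bars the median, which runs from −1.54 at Tbx3 to 1.03 at the first Esrrb block.

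The blocks with most members differed in how evenly they changed. In the block at Dusp27 and Gpa33 (6 members over 17745 bp), H3K27ac log2 fold changes along the chromosome were 0.21, 0.47, −0.71, −0.99, −1.46 and −2.10. The first 2 of these are negative at equal totals, and in the last 2 members H3K27ac went from 339 to 122 RPKM and from 402 to 93.2 RPKM. MED1 in this block ran from −1.16 to 0.21. In the block of Fbxo36, an F-box protein gene, and Slc16a14, a monocarboxylate transporter family gene, the first member had lower MED1 (801 RPKM in Esrrb f/f against 444 RPKM in Esrrb-/- ESCs). In the same block 3 others had higher MED1 (log2 fold changes 0.99, 1.07 and 1.02). The last 2 of these, whose cores are printed above, also had higher H3K27ac (1.21 and 0.74). In the block at Gsta2, Dppa5a and Ooep (6 members over 15713 bp), MED1 log2 fold changes stayed between −0.52 and 0.46, and the member over the Dppa5a start had 789 and 608 RPKM (−0.37).

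Other blocks with 5 members covered the whole range. The Sik1 block had lower MED1 in all 5 (−1.76 to −0.88), the Dlc1 block higher MED1 in all 5 (0.05 to 0.62) and the Ranbp17 block values from −1.23 to 0.03. The block at Qk, which encodes an RNA-binding protein, was the least even, from −1.72 to 1.07 for MED1, while its H3K27ac was lower in all 5 members (−2.71 to −0.15). The member with the highest MED1 log2 fold change there also had the lowest MED1 of all members in Esrrb f/f ESCs, 78.8 RPKM.

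The distance of 12.5 kb decides membership at its edge. The nearest member to a block with a PU was the Alpl member, 13001 bp away, with MED1 and H3K27ac log2 fold changes of −1.20 and −0.34. Just inside, the Jmjd1c subregion joined a PU over a gap of 11193 bp and is therefore no member, with log2 fold changes of −0.47 and −0.78.

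Between 6 and 3832 recovered reads (median 414) lay behind the MED1 value of a member in Esrrb f/f ESCs, and between 4 and 1579 (median 129) in Esrrb-/- ESCs. For H3K27ac these ranges were 40 to 5264 (median 808) and 6 to 5554 (median 691). MED1 in Esrrb-/- ESCs was thus the most thinly read of the 4 conditions, and the 36 members under 500 bp had a median width of the MED1 counting interval of 1.34 on the log2 scale, against 0.53 in longer members.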

How the data were processed

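The authors trimmed reads with Trimmomatic, aligned them to mm9 with Bowtie2 and removed duplicates with Picard, per the labels, and reads were then counted on subregions without peak calling. They deposited RPKM values per subregion, 1 for each antibody and genotype. The 4 sets of RPKM were joined on coordinates and type, and 0 columns were left unused. Input values were not used here. Reads were recovered as whole multiples of RPKM times length. Genes, starts and exons came from GENCODE on the same assembly, and sequence from its genome. All starts (100%) lay on a CpG counted from 1.

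The pseudocount was 1 RPKM. Members, lists, motifs and tests were chosen with earlier results of these data known. Named members were those at 10 naive genes, the 8 lowest and highest for MED1 and 5 for H3K27ac (at least 500 bp, mean RPKM at or above the members' median, 1 per block), the 5 largest blocks, the 3 longest members and those with most cores (11, owing to ties at 3 cores). Other members were named after their values were seen: those at Gadd45a, Brd1, Alpl and the further genes of lists and blocks. Counting intervals are Clopper-Pearson (95%). The functions were tested on simulated data. Python 3.11.15, numpy, pandas, scipy and matplotlib were used. Alternatives were 11 settings, with 3 added after the data were seen.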

Additional observations from a re-analysis of the deposited data

How the results depend on the processing

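Of 110 recomputed values (10 results under 11 settings), 91 stayed within the main value's interval. Both other scalings moved most of the rest. Centring on the median of all subregions gave a members' median log2 fold change of −0.20 for MED1 and −0.18 for H3K27ac, H3K27ac lower by 1.5-fold in 29.9% and higher in 8.53%, and a MED1 minus H3K27ac median of 0.024, which reversed. Equal totals gave −0.062 for MED1 and −0.42 for H3K27ac, MED1 lower in 29.4% and higher in 15.6%, H3K27ac lower in 41.7% and higher in 3.79%, and a reversed MED1 minus H3K27ac median of 0.40. Leaving out the subregions below the 25th percentile of mean RPKM gave MED1 lower in 49.7%, H3K27ac lower in 5.37%, an H3K27ac median of 0.21 and a MED1 minus H3K27ac median of −0.53. With 1 value per block, MED1 was higher in 3.12% and H3K27ac lower in 12.5%, and the MED1 minus H3K27ac median was −0.50. Splitting blocks by size, chosen after seeing the data, gave MED1 lower in 54.3% (1 or 2 members) and 33.3% (3 or more), against 26.8% of all subregions. The members' difference from the other DM subregions and the difference by core kept their sign under every setting run, including gaps of at most 5000 bp (246 members) or 25000 bp (206 members), both blocks at Esrrb left out and, for the core, classes of length.

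At single named members, a difference whose counting interval excluded 0 in the main setting changed sign as follows. Whether the new values differ from 0 beyond counting error was not tested, and several are close to 0. Centred, H3K27ac became −0.10 at the third Prdm14 member, −0.034 at Dusp27, −0.037 at the Etl4 member with 4 cores, −0.11 at Manba, −0.078 at C80913 and −0.040 at the first Klf5 member. At equal totals H3K27ac became −0.34 at this Prdm14 member, −0.18 at the second Fbxo36 member, −0.27 at Dusp27, −0.0050 at the first Gpa33 member, −0.27 at this Etl4 member, −0.35 at Manba, −0.31 at C80913, −0.14 at Zfp42, −0.13 at Ooep, −0.11 at the Tdh start, −0.28 at this Klf5 member, −0.21 at the second Tgif1 member and −0.015 at Csnk1a1. At equal totals MED1 became 0.12 at this Etl4 member, 0.055 at Gm16253, 0.0024 at the third member of the Dppa5a block, 0.047 at Cenpv and 0.080 at Serp2. The cause of these changes is the shift itself, which is the same for every subregion.

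No paired analysis was possible because the columns carry no replicate number, nor was any setting without a replicate. The replicate spread is unknown, and counting intervals cover counting error only. Shares and intervals over members treat the subregions of a block as separate.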
